A study of Mus musculus with 16 samples.

Results

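Aminoacyl-tRNA synthetases are the enzymes that join each amino acid to its tRNA, and so set the meaning of the genetic code. The cytosolic enzymes charge tRNAs for the cytosolic ribosome, separate nuclear genes encode most of the enzymes of the mitochondrion, and several cytosolic synthetases sit in a multisynthetase complex held together by the scaffold proteins AIMP1 and AIMP2. Growing cells, leukaemic ones among them, depend on these enzymes for protein synthesis, and transcription of many of the cytosolic genes is raised by ATF4, the transcription factor of the amino acid response.

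The synthetase transcripts were taken by symbol: after each Ensembl identifier was matched to its mouse symbol, genes named as a synthetase, or as Aimp1 or Aimp2, were kept. This gave 39 of the 21177 genes in the table, namely 20 cytosolic enzymes, 17 mitochondrial enzymes and the 2 scaffold genes. Gars and Kars encode both a cytosolic and a mitochondrial form and were counted as cytosolic. The rule itself used no measured value, but it was proposed with earlier results of these data known.

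The study followed label in the RNA of mouse leukemia cells of 2 genotypes, WT and YBX1-/-, taken from bone marrow of the C57BL/6 strain per the labels. YBX1 binds RNA, and by its title the series asks how the protein acts on mRNA stability in myeloid leukemia. Both genotypes were treated alike: cells took up 50 µM 4-thiouridine (4sU) for 24 h, were washed, and were then chased in medium with 10 mM uridine for 0, 0.5, 1, 3, 6, 12, 18 or 24 h, and libraries were made from polyA RNA. The sources used here do not give the age of the mice, the leukaemia driver or the way YBX1 was deleted. In SLAM-seq, RNA made in the presence of 4sU is recognised by T-to-C changes in its reads, and the measurement was the T-to-C rate, deposited as a fraction and given here in percent. The 16 libraries held 1 per genotype and time, so no time point had a replicate and every p-value below measures scatter over time points. The labels do not say whether the libraries came from separate cultures or animals. Decay of labelled transcripts and their dilution by newly made, unlabelled ones both lower the rate and cannot be told apart here.

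The whole table bears on the synthetases in a few ways. The depth of each library is unknown, so no counting interval can be set on a rate, and a rate of 0 may mean no converted read or no read. The YBX1-/- 0 h library stood apart: 3.64% of tested genes were listed at 0 in it, against 0.0945% in the WT 0 h library, and its SD across genes was 1.71 log2 against 0.65. The labelled cell type was checked on the authors' mean CPM (reads scaled to library size, averaged over all libraries): 12 of 12 myeloid markers lay above 1 CPM (12.6 to 7376), as did 3 of 4 megakaryocyte markers (Pf4 at 39.8 and Ppbp at 28.1), 1 of 6 B cell markers (Cd79b at 7.39), 1 of 6 erythroid markers (maximum 1.14, with Alas2 at 0), 0 of 6 T cell markers and 0 of 5 stromal markers. These CPM are means over all libraries, so the part of these markers in the genotype comparisons was not tested. YBX1-/- libraries were lower in label at most time points over all genes, so genotype comparisons below were made after the median of the tested genes had been subtracted in each library, and the uncentred values are named as such.

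Each gene was represented by its interval of highest mean CPM, and each of the 39 intervals overlapped an annotated UTR of its own gene (GRCm38, GENCODE annotation). Of these, 24 began past the last coding base of every annotated transcript and 13 overlapped annotated coding sequence of the gene. The intervals of Aimp2, Cars2, Iars2, Mars and Yars overlapped a gene on the opposite strand, over 2.81% of the interval (Yars) to 100% (Aimp2 and Cars2). Whether counting used strand is not stated, so reads of such a gene and of its antisense partner cannot be told apart. The synthetase intervals were short, with a median length of 372 bases against 1168 over the tested genes, and their T content was near that of the tested genes (27.9% and 29.3%). The reads behind the rates differed by class: the median CPM per interval was 9.16 for the cytosolic enzymes (1.63 to 59.2) and 2.13 for the mitochondrial ones (1.02 to 28.1), and the authors' mean coverage on Ts had medians of 3517 and 966. These CPM are not scaled to length and are not read as an order of abundance.

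Tests were limited to genes with a rate above 0 in 12 or more of the 16 libraries, which left 31 of the 39 synthetase genes: 19 of 20 cytosolic enzymes, 10 of 17 mitochondrial enzymes and both scaffold genes. Vars, Aars2, Ears2, Fars2, Pars2, Sars2, Vars2 and Wars2 were not tested, with a median CPM of 1.49. The filter passed 95% of the cytosolic and 58.8% of the mitochondrial enzymes, against 35.0% of all genes, so the medians given for the mitochondrial class describe its better covered members.

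The classes were also compared by the sequence around their starts. The ATF4-type element TGATGNAAN was searched on both strands, in the 250 bases before and 50 after each RefSeq gene start (GRCm38.p6), and 29 of the 39 genes had an entry. It was found in 5 of 13 cytosolic enzymes with an entry (Aars, Gars, Iars, Tars and Yars), in 0 of 14 mitochondrial enzymes and in 0 of 2 scaffold genes, against 4.50% of all RefSeq genes with a promoter in the table and 3.95% of all promoters. 1 match per gene is shown on the strand of the gene with 10 bases on each side, because this element is the feature compared between the classes, and the capitals mark the match to the element or its reverse complement.
Aars, chr8:111033840-111033868, + strand: agcgggtcacTTTTCATCAgagcgctctg
Gars, chr6:55037960-55037988, + strand: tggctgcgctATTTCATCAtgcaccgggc
Iars, chr13:49682126-49682154, + strand: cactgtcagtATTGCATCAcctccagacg
Tars, chr15:11399656-11399684, - strand: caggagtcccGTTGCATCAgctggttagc
Yars, chr4:129189896-129189924, + strand: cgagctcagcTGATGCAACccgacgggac
Of the matches shown, that of Yars lay on the strand of the gene and the others on the opposite strand. A match is a string of letters and does not show that a factor binds there. Genes with no entry included Cars, Hars, Hars2, Lars, Nars, Pars2, Rars, Vars and Wars.

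The synthetase transcripts were well labelled at the start of the chase and had lost nearly all label after 1 day. In WT the median rate of the 19 tested cytosolic enzymes was 40.8%, 45.8%, 48.2%, 25.8%, 11.7%, 2.25%, 0.625% and 0% from 0 to 24 h, in the order of the time points above, which holds for every series of rates below. In YBX1-/- it was 30.0%, 34.8%, 26.6%, 19.2%, 4.89%, 1.54%, 0.870% and 0.722%. The decline was thus already under way at 3 h in both genotypes, and the YBX1-/- median was lower from 0 to 12 h and higher at 18 and 24 h.

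The 10 tested mitochondrial enzymes started at similar rates. Their median in WT was 39.6%, 51.4%, 51.5%, 11.9%, 7.93%, 1.16%, 1.18% and 0%. In YBX1-/- it was 42.2%, 32.5%, 26.9%, 13.8%, 6.87%, 1.63%, 2.61% and 0.881%. The clearest gap between the classes in WT was at 3 h. There 5 of 10 mitochondrial enzymes had a lower rate at 3 h than at 6 h, against 2 of 19 cytosolic enzymes and 17.2% of the tested genes. In YBX1-/- these counts were 1 of 10, 1 of 19 and 4.64%.

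Of the mean rate from 0 to 1 h, the median cytosolic enzyme in WT kept 50.6% at 3 h and 26.3% at 6 h. The median mitochondrial enzyme kept 33.6% and 16.4%, and the median tested gene 45.0% and 22.8%. In YBX1-/- the cytosolic enzymes kept 64.4% and 16.8%, the mitochondrial enzymes 48.7% and 17.1%, and the tested genes 54.7% and 14.7%. The cytosolic class therefore kept a larger share than the mitochondrial class at 3 h in both genotypes, which is a description of single libraries without a test.

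By 24 h many WT rates were listed at 0. This held for 10 of 19 cytosolic enzymes in WT and 2 in YBX1-/-, for 7 of 10 mitochondrial enzymes in WT and 4 in YBX1-/-, and for 32.5% and 14.2% of the tested genes. The genotypes thus differed in zeros over the whole table, not in synthetases alone, and these zeros enter every slope given below.

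**Figure D1:**
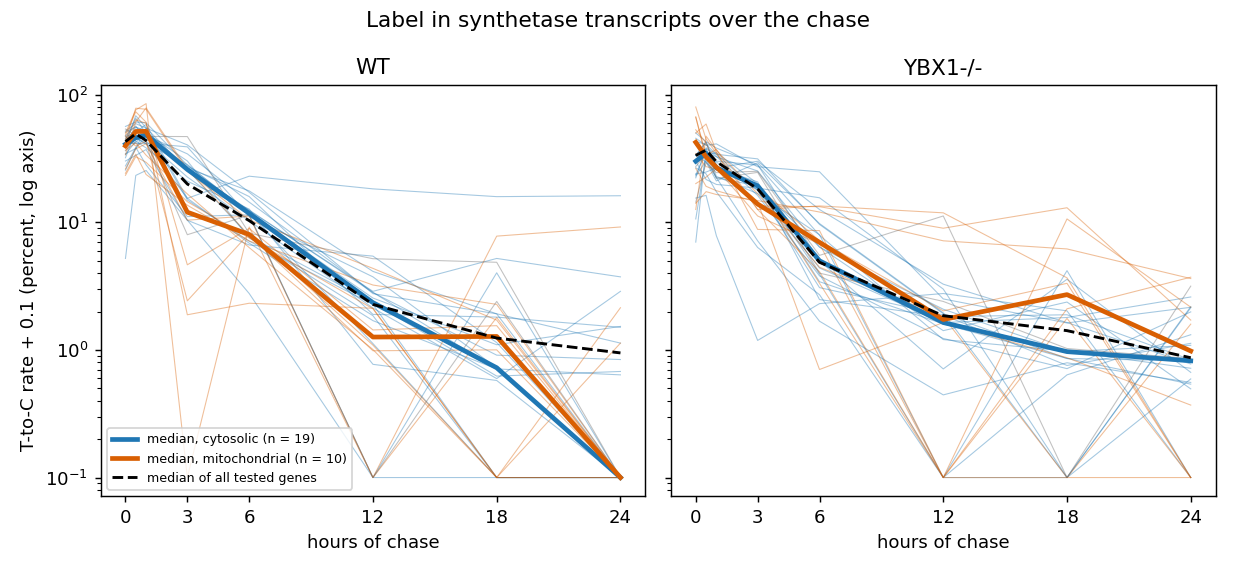
T-to-C rate plus 0.1 percentage points (log axis) against hours of chase in WT (left) and YBX1-/- (right), with thin lines for the tested cytosolic (blue, n = 19) and mitochondrial (orange, n = 10) enzymes, thick lines for the class medians and a dashed line for the median of all tested genes. The class medians fall in WT from 40.8% and 39.6% at 0 h to 0% at 24 h, drawn at the added value of 0.1, and the orange line dips below the blue at 3 h in both genotypes.

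Loss of label was tested as a straight line of log2(rate + 0.1 percentage points) on hours in each genotype, with limma over all 7411 tested genes. The threshold was a Benjamini-Hochberg adjusted p under 0.05. Both genotypes were fitted together with a shared residual spread, so in the main fit a gene has the same SE in WT and YBX1-/-. That SE includes the scatter of both genotypes, rates of 0 among it. In WT label fell in 29 of the 31 tested synthetase genes, 18 of 19 cytosolic, 9 of 10 mitochondrial and 2 of 2 scaffold genes, against 94.7% of all tested genes. In YBX1-/- it fell in 28 of 31, 19 of 19 cytosolic, 7 of 10 mitochondrial and 2 of 2 scaffold genes, against 92.6%. These shares were near the background.

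The median slope in WT was -0.29 log2 per h for the cytosolic and -0.33 for the mitochondrial enzymes, against -0.27 over the tested genes. In YBX1-/- the medians were -0.25, -0.26 and -0.25. The genes of the multisynthetase complex, which were Eprs, Iars, Lars, Mars, Qars, Rars, Kars and Dars with Aimp1, Aimp2 and Eef1e1, fell in 11 of 11 cases in each genotype, with medians of -0.34 in WT and -0.25 in YBX1-/-. Cytosolic enzymes outside the complex had medians of -0.29 and -0.25. Cytosolic enzymes were also split by the fold of the catalytic domain, with Eprs counted in class I alone. The 9 tested class I enzymes had a WT median of -0.35 and the 10 class II enzymes -0.28. These sets overlap, their members share libraries, and the medians are given as descriptions.

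The steepest WT slopes belonged to Gars, the glycyl-tRNA synthetase, and Qars, the glutaminyl-tRNA synthetase. The WT rates of Gars were 36.2%, 45.8%, 40.9%, 28.3%, 11.7%, 1.02%, 0% and 0%. Gars in YBX1-/- had 33.3%, 42.1%, 25.7%, 19.0%, 6.31%, 1.32%, 2.27% and 0.395%. The genotypes of Gars were close up to 0.5 h, WT was higher from 1 to 6 h, and YBX1-/- was higher from 12 h on. Its WT slope was -0.42 log2 per h (SE 0.042, limma adjusted p = 1.9e-07).

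The WT rates of Qars were 40.2%, 42.3%, 50.0%, 30.1%, 7.46%, 1.75%, 0% and 0%. Qars in YBX1-/- had 30.0%, 37.4%, 22.8%, 16.7%, 7.89%, 0%, 4.08% and 0%. Both genotypes of Qars thus held a rate of 0 in 2 late libraries. The WT slope of Qars was -0.42 (SE 0.069, limma adjusted p = 3.33e-05). Qars had 35 intervals, and with their CPM-weighted mean its WT slope was -0.23 (SE 0.034). The median over the tested genes was -0.26 in that setting, so the rank of Qars among the steepest rested on the interval chosen.

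**Figure D2:**
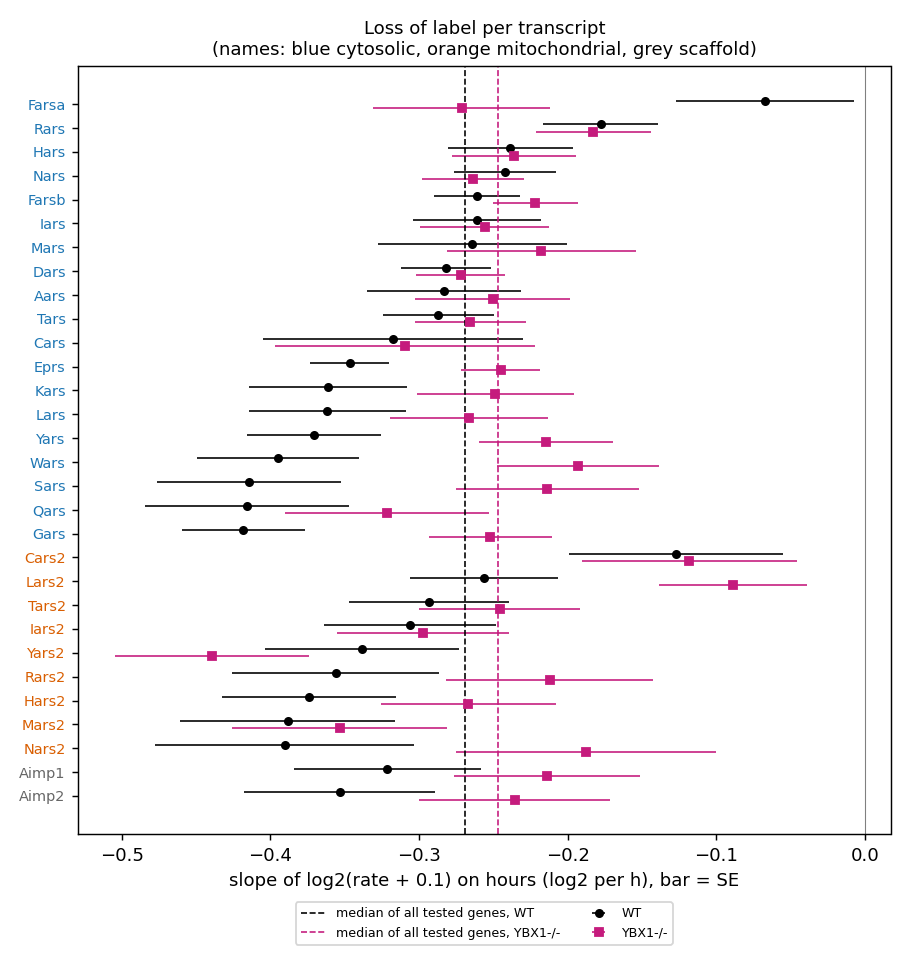
Slope of log2(rate + 0.1) on hours (log2 per h) with its standard error as a bar for the tested synthetase genes described here, in WT (black circles) and YBX1-/- (magenta squares), with dashed lines at the median slope of all tested genes, -0.27 and -0.25. Farsa in WT (-0.07), Cars2 in both genotypes and Lars2 in YBX1-/- (-0.09) lie closest to 0, and the WT points of Wars, Sars and Gars lie left of their YBX1-/- points. The bar of a gene has the same length in both genotypes, which share a residual spread.

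Farsa and Cars2 were the tested synthetase genes whose label did not fall past the threshold in WT. Farsa encodes the catalytic alpha subunit of the cytosolic phenylalanyl-tRNA synthetase, and Farsb encodes its beta subunit. The Farsa interval (ENSMUSG00000003808, chromosome 8, 84868866 to 84869256) overlapped an annotated UTR and annotated coding sequence of the gene. Farsa had WT rates of 46.8%, 50.7%, 58.3%, 15.3%, 22.9%, 18.2%, 15.8% and 16%. Farsa in YBX1-/- had 33.3%, 33.5%, 35.0%, 20.0%, 3.83%, 0%, 0.538% and 1.22%. In WT the rate thus fell once, before 3 h, and then stayed between 15.3% and 22.9%, while in YBX1-/- it ran down to near 0. The WT slope was -0.07 (SE 0.06, limma adjusted p = 0.281) and the YBX1-/- slope -0.27, which fell past the threshold.

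The late WT plateau of Farsa was high among all genes: 0.999% of the tested genes had a higher mean rate over 12 to 24 h in WT, against 87.1% in YBX1-/-. An exponential with a constant floor gave a WT half-life of 1.88 h (range 1.11 to 3.76 over fits without 1 time point) and a floor of 15.9%, and in YBX1-/- 2.79 h (2.36 to 3.45) with a floor of 0. A second, overlapping interval of Farsa had 19.5%, 17.0% and 24.5% at 12, 18 and 24 h in WT. The next interval by CPM, with a mean of 2.34 CPM, was at 0 in WT at these times. Within 1 Mb of Farsa, 9 of 35 tested genes also had a WT mean above 5% over 12 to 24 h and 0 of 35 did in YBX1-/-, against 7.77% and 7.65% of all tested genes. Around Cars2, Aars and Kars, on the same chromosome, the WT counts were 0 of 5, 0 of 16 and 0 of 10. The part of the position on the chromosome in the Farsa rates was not tested.

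Farsb did not share the plateau. Its WT rates were 51.7%, 59.2%, 54.6%, 40.3%, 17.1%, 2.66%, 1.82% and 1.03%. Farsb in YBX1-/- had 45.5%, 40.0%, 41.1%, 27.1%, 24.8%, 2.41%, 1.53% and 2.06%. The floor fit gave Farsb half-lives of 3.90 h in WT (3.31 to 4.27) and 4.67 h in YBX1-/- (3.71 to 5.42), so the ranges overlapped. Farsb was named for its partner after the values were seen.

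Cars2, the mitochondrial cysteinyl-tRNA synthetase, fell past the threshold in neither genotype in the main fit. Its WT rates were 26.1%, 37.5%, 41.2%, 10.3%, 11.1%, 0%, 7.69% and 9.09%. Cars2 in YBX1-/- had 20.0%, 22.5%, 26.2%, 13.3%, 13.2%, 8.89%, 12.9% and 1.61%. The low values were 1 library in each genotype, 12 h in WT and 24 h in YBX1-/-, and the interval held a mean of 1.82 CPM, all of it antisense to Naxd. The slopes were -0.13 (SE 0.072, limma adjusted p = 0.101) in WT and -0.12 (adjusted p = 0.127) in YBX1-/-. Without the 12 h libraries Cars2 passed in both (-0.08, adjusted p = 0.0211 in WT, and -0.12, adjusted p = 0.00176 in YBX1-/-). The YBX1-/- slope was thus -0.12 with and without them. The SE shared by the genotypes was 0.072 in the main fit and 0.0297 without the 12 h libraries, of which the WT one was at 0%. Without the 24 h libraries Cars2 passed in WT (-0.26, adjusted p = 0.0202). With the CPM-weighted mean of its intervals Cars2 also passed in both genotypes. The slopes in that setting were -0.19 in WT (limma adjusted p = 0.0123) and -0.18 in YBX1-/- (adjusted p = 0.0202). The next interval of Cars2 by CPM was at 0 at 12, 18 and 24 h in both genotypes, so its late label rested on the interval chosen.

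Lars2, the mitochondrial leucyl-tRNA synthetase, and Nars2, the mitochondrial asparaginyl-tRNA synthetase, fell in WT and did not pass in YBX1-/- in the main fit. They were named after their values were seen. With 0.5 percentage points added before the logarithm, 31 of 31 tested synthetase genes passed in YBX1-/-, with 10 of 10 mitochondrial enzymes. The count over all genes was then 7042 of 7411. Lars2 had WT rates of 23.2%, 32.6%, 29.4%, 14.4%, 7.44%, 2%, 0% and 2.04%. Lars2 in YBX1-/- had 14.0%, 17.3%, 16.4%, 14.7%, 11.9%, 7.06%, 6.08% and 3.52%. YBX1-/- was lower in Lars2 up to 1 h, near WT at 3 h and higher from 6 h on. The YBX1-/- slope was -0.09 (SE 0.05, limma adjusted p = 0.098), and it passed in 3 of 19 alternatives. Among these was the fit without the 18 h libraries (-0.09, limma adjusted p = 0.0144). The WT library left out there was at 0%, and the genotypes share an SE. The floor fit of Lars2 gave half-lives of 3.37 h in WT (2.16 to 3.67) and 11.6 h in YBX1-/- (9.09 to 12.3), ranges that did not overlap. The test of the difference in slope did not pass (0.15 log2 per h, SE 0.064, limma adjusted p = 0.398), and whether reads of near-identical copies elsewhere were counted at Lars2 was not tested.

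Nars2 had WT rates of 48.0%, 73.3%, 60.8%, 1.79%, 2.22%, 2.02%, 0% and 0%. Nars2 in YBX1-/- had 66.7%, 31.6%, 27.6%, 19.0%, 3.23%, 0%, 10.5% and 2.06%. The WT rate was thus down to 1.79% in the 3 h library and at 0% only from 18 h on, and YBX1-/- scattered between 0% and 10.5% late in the chase. The YBX1-/- slope of -0.19 had a limma adjusted p of 0.0501, and it passed in 6 of 19 alternatives. Among these were the fits without the 12 h (-0.14, adjusted p = 0.0413) or the 18 h libraries (-0.25, adjusted p = 0.0263). Over the alternatives the Nars2 slope ran from -0.74 to -0.14, and its limma adjusted p from 0.000142 to 0.139. Without the 24 h libraries label fell in 26 of 31 in YBX1-/-, and Mars (-0.13, adjusted p = 0.102) was among those that did not pass.

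**Figure D3:**
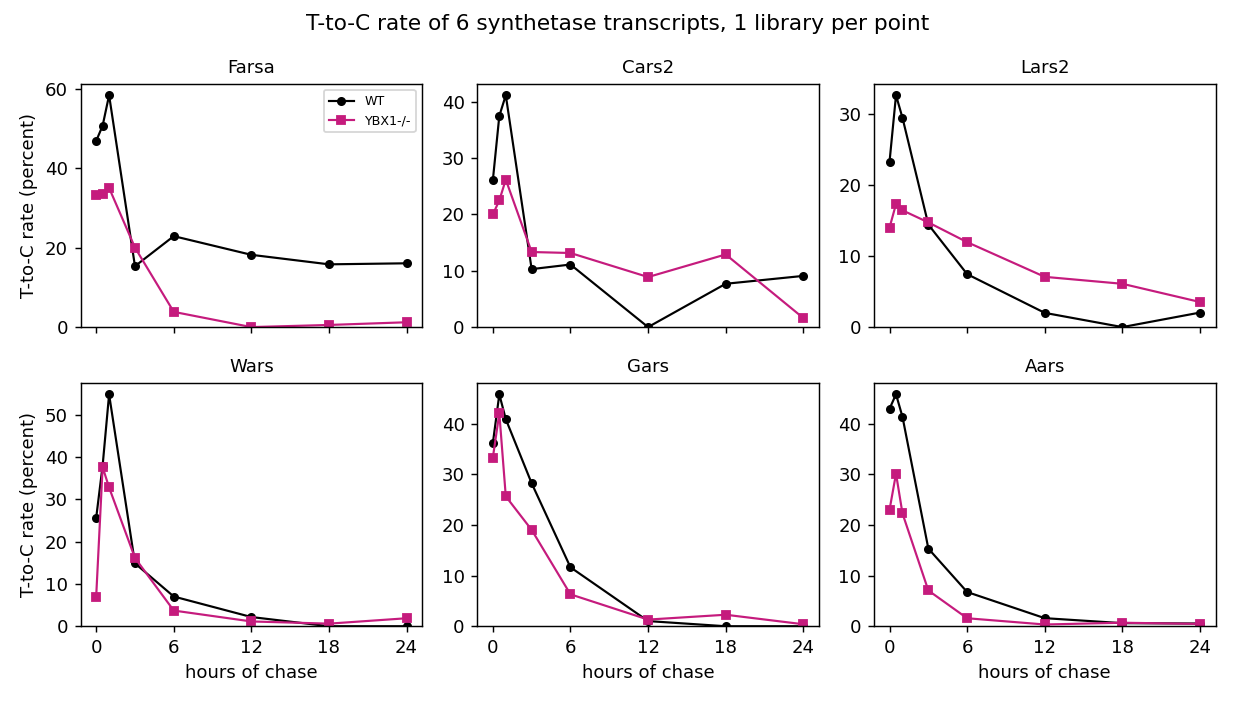
T-to-C rate (percent) against hours of chase for Farsa, Cars2, Lars2, Wars, Gars and Aars in WT (black circles) and YBX1-/- (magenta squares), 1 library per point. Farsa stays between 15.3% and 22.9% from 3 h on in WT and reaches 0% in YBX1-/- at 12 h, Lars2 is higher in YBX1-/- from 6 h on, and Wars, Gars and Aars approach 0 in both genotypes.

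Most synthetases carried less label in YBX1-/- at the start of the chase, as did most genes. At 0, 0.5, 1, 3, 6, 12, 18 and 24 h YBX1-/- was lower in 22, 30, 31, 14, 23, 19, 14 and 10 of the 31 tested synthetase genes. Over all tested genes the shares were 75%, 85.5%, 87.5%, 59.1%, 86.0%, 54.6%, 41.0% and 49.4%. A gene at 0 in WT could not be counted as lower in either set, which limits the late counts. At 0.5 and 1 h nearly all synthetases were lower in YBX1-/-, a larger share than over all tested genes, and the count was largest at 1 h.

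The classes differed in these counts at several times. Cytosolic enzymes were lower in YBX1-/- in 16, 19, 19, 11, 16, 14, 9 and 8 of 19 cases, and mitochondrial ones in 4, 9, 10, 2, 5, 5, 3 and 2 of 10. A gene at 0 in WT could not be counted as lower. In WT 4 of 19 cytosolic and 4 of 10 mitochondrial enzymes were at 0 at 18 h, and 10 and 7 at 24 h. The uncentred median difference, YBX1-/- minus WT, was -0.35, -0.56, -0.73, -0.41, -0.90, -0.55, 0.16 and 0 log2 for the cytosolic enzymes. For the mitochondrial enzymes it was 0.15, -0.68, -0.81, 0.28, -0.05, -0.04, 0.89 and 0.38. The mitochondrial enzymes were thus as low as the cytosolic ones at 0.5 and 1 h and near or above WT at the other times, with the 0 h value resting on the YBX1-/- library that stood apart. Where WT was at 0 a difference could not be negative, which limits the values at 18 and 24 h.

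**Figure D4:**
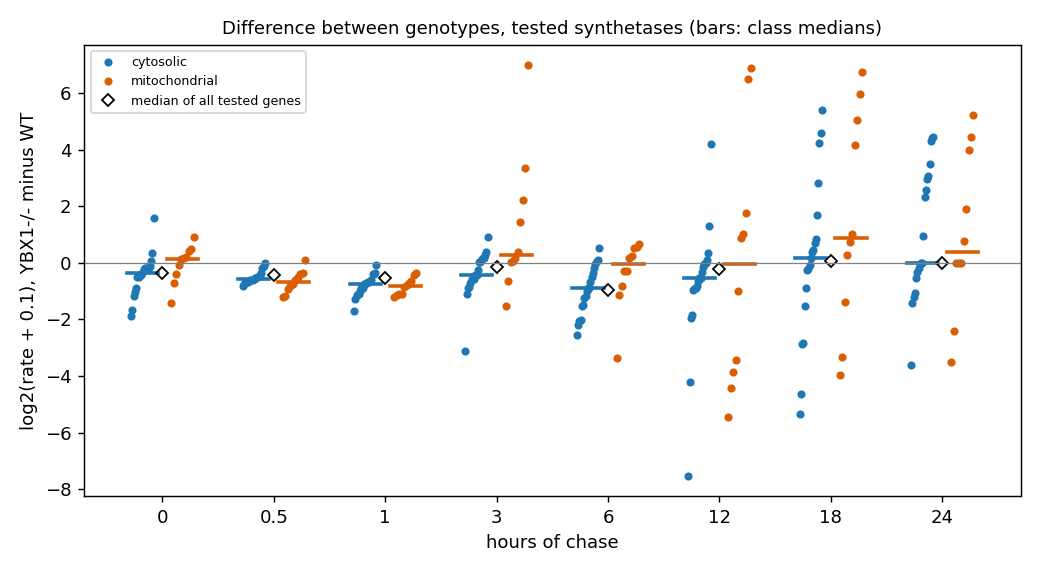
Difference in log2(rate + 0.1) between YBX1-/- and WT at each time point of the chase, without centring, for the tested cytosolic (blue, n = 19) and mitochondrial (orange, n = 10) enzymes, with bars at the class medians and diamonds at the median of all tested genes. At 0.5 and 1 h nearly all points lie below 0, and from 12 h on the points spread over several log2 units, with rates of 0 in 1 genotype or the other.

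The rate of label loss was not shown to differ between the genotypes for any synthetase. The difference in slope, YBX1-/- minus WT, was tested with limma on centred values with the time point as a factor, and 0 of 31 synthetase genes passed, against 0.108% of all tested genes (8 of 7411). At an unadjusted p under 0.05 there were 5 of 31 (16.1%), against 12.5% of all tested genes. The medians were 0.02 log2 per h for the cytosolic enzymes, 0.02 for the mitochondrial enzymes and 0.004 over the tested genes, and 21 of 31 differences were positive (67.7%, against 52.4%).

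The smallest p among positive differences belonged to Wars, the tryptophanyl-tRNA synthetase, and to Gars. Wars had WT rates of 25.6%, 37.9%, 54.8%, 14.9%, 7.02%, 2.17%, 0% and 0%. Wars in YBX1-/- had 6.90%, 37.6%, 32.8%, 16.1%, 3.70%, 1.13%, 0.613% and 1.89%. WT was higher at 0 and 1 h and from 6 to 12 h, and YBX1-/- was higher at 18 and 24 h, where WT was listed at 0. The Wars difference was 0.18 log2 per h (SE 0.051, limma adjusted p = 0.188), and that of Gars 0.15 (SE 0.046, adjusted p = 0.234). Over 0 to 12 h, without the libraries in which WT was at 0, the differences were 0.0018 for Wars (adjusted p = 0.991) and 0.042 for Gars.

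Yars, the tyrosyl-tRNA synthetase, was named after its values were seen. Its WT rates were 34.0%, 43.1%, 38.2%, 20.9%, 12.6%, 0.671%, 0.476% and 0%. Yars in YBX1-/- had 10.5%, 33.2%, 29.6%, 17.7%, 2.98%, 1.78%, 0.656% and 1.03%. YBX1-/- was lower in Yars up to 6 h and higher from 12 h on, and the difference was 0.14 (limma adjusted p = 0.278). Wars, Gars, Yars and Sars, the 4 positive differences with an unadjusted p under 0.05, each had a WT rate of 0 at 24 h and a YBX1-/- rate above 0 there, and the sizes of their differences depend on the value added before the logarithm. Without the YBX1-/- 0 h library Yars had an unadjusted limma p of 0.0521 and a difference of 0.12, and the other 3 kept an unadjusted p under 0.05.

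The smallest p among negative differences belonged to Farsa and to Nars, the cytosolic asparaginyl-tRNA synthetase. Farsa had -0.22 log2 per h (SE 0.073, limma unadjusted p = 0.0145, adjusted p = 0.244), and its plateau in WT is given above. Without the 12 h libraries Farsa passed (-0.19, adjusted p = 0.0397), and without the 18 h libraries 2 other genes passed, Hars2 (0.20, adjusted p = 0.0368) and Aimp1 (0.25, adjusted p = 0.0185). Calls over all 7411 tested genes rose as well, from 3 positive and 5 negative to 117 and 87 without the 12 h libraries. Without the 18 h libraries they were 65 and 26. Nars, whose interval had the highest CPM of the synthetases at 59.2, had WT rates of 42.2%, 55.5%, 49.9%, 27.3%, 15.8%, 1.80%, 1.71% and 1.40%. Nars in YBX1-/- had 30.2%, 34.8%, 30.1%, 28%, 7.82%, 1.11%, 0.881% and 0.618%. Nars was lower in YBX1-/- at each time but 3 h, and the slope difference was -0.04 (SE 0.019, limma adjusted p = 0.421).

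The labelling level over the whole chase, relative to the median gene, was not shown to differ for any synthetase either. In limma 0 of 31 passed, against 0.0% of all tested genes, with 2 of 31 at an unadjusted p under 0.05 against 5.60% of all tested genes. The median difference was 0.08 log2 for the cytosolic enzymes, 0.60 for the mitochondrial enzymes and 0.01 over the tested genes. Without centring the medians were -0.27, 0.25 and -0.34. With a filter of at least 8 libraries above 0, which kept all 17 mitochondrial enzymes, their centred median was -0.05, so its sign rested on the filter.

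The lower levels in YBX1-/- with the smallest p were those of Rars, the arginyl-tRNA synthetase, and Farsa. Rars had WT rates of 50.7%, 55.7%, 51.8%, 26.7%, 12.3%, 2.78%, 5.11% and 3.64%. Rars in YBX1-/- had 22.2%, 38.3%, 33.8%, 17.8%, 4.29%, 1.54%, 1.69% and 2.50%. YBX1-/- was lower in Rars at 8 of 8 time points, with a centred difference of -0.56 (SE 0.203, limma unadjusted p = 0.0197, adjusted p = 0.779). Farsa had -2.12 (SE 0.846, adjusted p = 0.779).

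Sars, the seryl-tRNA synthetase, was among the higher levels with the smallest p. Sars had WT rates of 27.5%, 38.5%, 28.1%, 11.0%, 11.4%, 0%, 0% and 0%. Sars in YBX1-/- had 23.8%, 24.7%, 26.6%, 20.6%, 2.38%, 1.72%, 1.79% and 0.737%. The higher YBX1-/- rates of Sars were those at 3 h and at 12 h and later, where WT was at 0, and the difference was 1.5 (SE 0.723, limma adjusted p = 0.779).

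Aars and Dars, the cytosolic alanyl- and aspartyl-tRNA synthetases, followed Nars in CPM among the cytosolic enzymes. Aars (37.2 CPM) had WT rates of 43.0%, 45.8%, 41.4%, 15.3%, 6.76%, 1.6%, 0.610% and 0.538%. Aars in YBX1-/- had 23.0%, 30.1%, 22.3%, 7.06%, 1.58%, 0.344%, 0.693% and 0.456%. Aars was lower in YBX1-/- at each time but 18 h, with a level difference of -0.59 (limma adjusted p = 0.779) and a slope difference of 0.01 (adjusted p = 0.934), and 53.9% of its interval was shared with Exosc6 on the same strand.

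Dars (54.2 CPM) had WT rates of 40.8%, 68.4%, 55.0%, 25.6%, 12.4%, 2.71%, 0.810% and 0.741%. Dars in YBX1-/- had 43.0%, 40.5%, 34.0%, 31.3%, 9.52%, 1.82%, 0.757% and 0.722%. The late rates of Dars nearly coincided between genotypes. The floor fits of Dars gave 3.16 h in WT (1.83 to 3.52) and 3.5 h in YBX1-/- (2.71 to 4.08).

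The scaffold genes fell in both genotypes. Aimp1 had WT rates of 53.7%, 48.0%, 47.0%, 46.9%, 8.11%, 5.08%, 4.76% and 0%. Aimp1 in YBX1-/- had 14.3%, 29.3%, 24.4%, 25%, 5.41%, 11.1%, 0% and 3.06%. Aimp1 held its label until 3 h in both genotypes and then dropped. Aimp2 had WT rates of 45.5%, 50.8%, 42.9%, 7.89%, 11.3%, 0%, 2.30% and 0%. Aimp2 in YBX1-/- had 27.3%, 34.1%, 22.0%, 24.5%, 3.90%, 2.30%, 0.926% and 0.755%. The 2 scaffold genes parted in WT at 3 h, where Aimp2 had already lost most label, and the whole Aimp2 interval lies antisense to Eif2ak1, a kinase of the integrated stress response.

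For 10 amino acids both the cytosolic and the mitochondrial enzyme were tested. The mitochondrial enzyme had the steeper slope in 7 of 10 pairs in WT and in 6 of 10 in YBX1-/-. The widest gap in WT was for cysteine, where the cytosolic enzyme was steeper, with -0.32 for Cars and -0.13 for Cars2. The widest gap with a steeper mitochondrial enzyme was for arginine, with -0.18 for Rars and -0.36 for Rars2. Asparagine had -0.24 and -0.39, histidine -0.24 and -0.37, and methionine -0.26 and -0.39, in the order Nars and Nars2, Hars and Hars2, Mars and Mars2. Threonine had nearly equal slopes, -0.29 for Tars and for Tars2.

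In YBX1-/- tyrosine had -0.21 for Yars and -0.44 for Yars2, methionine -0.22 for Mars and -0.35 for Mars2, and leucine -0.27 for Lars and -0.09 for Lars2. Of the early rate, the mean over 0 to 1 h, the methionine pair had the widest ratio, with 17.9% for Mars and 43.2% for Mars2 in WT and 13.1% and 40.3% in YBX1-/-. The Mars interval is 73 bases long and 93.2% of it lies antisense to Ddit3, a stress-response transcription factor. Isoleucine ran the other way, with 59.1% for Iars and 37.3% for Iars2 in WT and 43.6% and 29.2% in YBX1-/-. Per library the mitochondrial enzyme was higher in 1 to 7 of 10 pairs in WT and in 2 to 7 in YBX1-/-, and both minima were at 3 h.

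Over the 16 libraries the cytosolic median minus the mitochondrial median was -0.01 log2 (SD 0.62, n = 16 libraries) and lay above 0 in 7 of 16. The mean was 0.20 (SD 0.62) over the 8 WT libraries and -0.23 (SD 0.58) over the 8 YBX1-/- libraries, each smaller than its spread. The WT 3 h library had the value 1.12 and the YBX1-/- 18 h library -1.45. With all 17 mitochondrial enzymes kept by a filter of 8 libraries the mean was 0.88 (SD 1.29), so the value depends on whether sparsely read enzymes enter.

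An exponential with a floor fitted to the class medians gave half-lives of 3.41 h in WT (range 2.76 to 3.74 over fits without 1 time point) and 2.95 h in YBX1-/- (2.38 to 3.59) for the cytosolic enzymes. For the mitochondrial enzymes it gave 2.37 h in WT (1.44 to 3.12) and 1.69 h in YBX1-/- (1.61 to 1.96), the latter with a floor of 2%. The WT value of the mitochondrial enzymes was 1.44 h without the 0 h libraries. The tested genes had 2.76 h (2.01 to 3.11) and 2.66 h (2.11 to 3.17). The ranges of the classes overlapped in WT and not in YBX1-/-, where the fitted floors also differed, and no test compared them.

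Other genes of the tRNA pathway, which process, modify, export or proofread tRNA, had counts near the background. Of 49 listed genes 48 were in the table and 28 were tested. Label fell in 27 of 28 in WT and in 26 of 28 in YBX1-/-, with medians of -0.29 and -0.25 log2 per h. Rpp40, a subunit of the RNase P and MRP complexes, did not pass in either genotype (limma adjusted p = 0.191 and 0.23), and Aarsd1, a protein with an alanyl-tRNA editing domain, had -0.01 in YBX1-/- (adjusted p = 0.935). Neither the slope nor the level differed between genotypes past the threshold in any of the 28 in limma. At an unadjusted p under 0.05 there were 3 (10.7%) and 0, against 12.5% and 5.60% of all tested genes.

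The genes of the ATF4 axis, the amino acid response that includes several cytosolic synthetases, gave similar counts. Of 30 listed genes 19 were tested, and label fell in 19 of 19 in each genotype, with medians of -0.28 and -0.24. Shmt2, the mitochondrial serine hydroxymethyltransferase, had -0.37 in WT and -0.27 in YBX1-/-, and Atf4 itself had -0.16 and -0.17. Asns, the asparagine synthetase, had -0.38 and -0.27. In limma 0 of 19 differed in slope, with 1 (5.26%) at an unadjusted p under 0.05 against 12.5% of all tested genes. In level 0 of 19 differed, with 2 (10.5%) at an unadjusted p under 0.05 against 5.60%. These were Cebpb with -1.34 and Ddit3 with -0.95 (limma adjusted p = 0.779 for each).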

How the data were processed

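The deposited table was used as the authors made it: a T-to-C rate per interval and library as a fraction from 0 to 1, and, per the file headers, averages over libraries of reads in CPM and of a coverage signal on Ts, with the interval's length and number of Ts. The submitters' processing notes name CASAVA, HISAT2 2.1.0 and the build GRCh38, although identifiers and coordinates fit mouse GRCm38; the counting program, its use of strand and the denominator of the rate are not given in the sources used here. No unlabelled library was used, so no background rate was subtracted. Depth per library is unknown.

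Of 86993 intervals (74385 distinct), the one of highest mean CPM was kept per gene; 21148 of 21177 genes matched a symbol. Rates in percent were analysed as log2(rate + 0.1), for genes above 0 in at least 12 of 16 libraries, with limma 3.58.1 in R 4.3.3 (trend), in fits checked on simulated data. Label loss had 1 line per genotype, with a residual spread shared by both. Genotype comparisons used centred values with the time point as a factor. Floor fits used scipy 1.17.1 and sums pandas 2.3.3. Fitted over all 7411 genes, p-values were Benjamini-Hochberg adjusted. Members named with all rates were the 3 of highest CPM, the 2 of smallest p in each direction of each genotype comparison, the 2 steepest and 2 shallowest WT slopes, and Aimp1 and Aimp2; some results under this rule are not reported here. The members and lists were chosen with earlier results of these data known. Promoter sequences are from RefSeq. Alternatives changed the added value, the filter, the centring, the interval, the time points and the time factor.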

Additional observations from a re-analysis of the deposited data

How the results depend on the processing

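Label fell in 25 to 35 synthetase genes per genotype under every alternative but 1: requiring a rate above 0 in all 16 libraries left 8 tested genes, of which 8 fell in WT and 8 in YBX1-/-, and no mitochondrial enzyme, so no class comparison could be made there. The count of slope differences was 0 in all alternatives except over 0 to 12 h, where it was 2 (Farsa at -0.58 and Cars2 at 0.57), and with single time points left out, where it ran from 0 to 2. At 12 h, the end of that window, the rate was 0% for Farsa in YBX1-/- and for Cars2 in WT. Over all time points the Cars2 difference was -0.01 (limma adjusted p = 0.977). Over 0 to 12 h the calls over all 7411 tested genes also rose, to 135 positive and 133 negative, from 3 and 5 in the main fit. Those without the 12 h or the 18 h libraries are given above. The count of level differences was 0 in all 20 alternatives. The cytosolic minus mitochondrial median was 0.88 with a filter of 8 libraries or of 1 library above 0. The class half-lives, with each time point left out, ran from 2.76 to 3.74 h (cytosolic, WT), 2.38 to 3.59 h (cytosolic, YBX1-/-), 1.44 to 3.12 h (mitochondrial, WT) and 1.61 to 1.96 h (mitochondrial, YBX1-/-). Without the YBX1-/- 0 h library the YBX1-/- values were 2.38 h and 1.96 h. The mitochondrial YBX1-/- value was also 2.07 h with the filters of 8 or 1 library, 2.53 h with a CPM-weighted mean of intervals and 1.93 h with the longest interval. Over 0 to 6 h the slope differences of Gars (-0.018) and Nars (0.054) changed sign. The cause was not tested. The genotype fits matched the libraries by time point, and without that factor the counts of slope and level differences were also 0. Unknown depth limits every rate near 0, above all for mitochondrial enzymes, and the Farsa, Lars2 and Cars2 patterns rest on 1 library per point.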
